A study of Homo sapiens with 24 samples.

Results

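SKBR3 cells whose fatty acid synthesis was inhibited were set against SKBR3 cells whose mitotic Aurora kinase A was inhibited. Of the 24 RNA-seq libraries of the series, 6 belong to this comparison: 3 libraries of SKBR3 cells treated with TVB-3166, an inhibitor of fatty acid synthase (FASN), and 3 of SKBR3 cells treated with alisertib, an inhibitor of Aurora kinase A. The libraries were chosen by their labels, and the members are all genes of the count table, of which 13806 of 14493 had enough reads to be tested. SKBR3 is an established human breast cancer line with an amplified ERBB2 (HER2) gene. TVB-3166 was given at 250 nmol/L and alisertib at 500 nmol/L, each drug at a single dose, so that drug and dose cannot be told apart, with the medium renewed on day 3 and RNA collected on day 7. As references the 3 libraries of untreated SKBR3 cells collected on day 7 and the 3 collected on day 0 are used. The labels give the renewal on day 3 for the drug libraries and none for the untreated day-7 libraries. In comparisons with untreated day-7 cells, drug and feeding therefore cannot be told apart. The comparison asks how cells under an inhibitor of lipid synthesis differ in their RNA from cells under an inhibitor of a mitotic kinase. The paper describes both drugs as inducers of senescence. At this dose of TVB-3166 with renewal on day 3, it reports senescence-associated beta-galactosidase staining in only a part of the SKBR3 cells. The TVB-3166 libraries may therefore mix senescent and other cells.

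FASN builds palmitate, the saturated fatty acid from which longer and unsaturated fatty acids and much of the membrane lipid of a tumour cell are made. Cells read their lipid supply through 3 families of transcription factors. SREBP proteins switch on sterol and fatty acid synthesis and lipoprotein uptake, LXR receptors respond to oxysterols and switch on cholesterol export, and PPAR receptors respond to fatty acids themselves and switch on their oxidation. Aurora kinase A acts later in the cycle, at the centrosomes, where it is needed for entry into mitosis and for a bipolar spindle, and cells in which it is blocked can leave mitosis without dividing and become polyploid. Genes of S phase are largely driven by E2F factors, whereas genes of mitosis carry a cell cycle homology region (CHR), through which the DREAM and B-MYB-MuvB complexes repress or activate them.

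Read totals were 29626473 to 31455795 in the TVB-3166 libraries and 30672820 to 43705589 in the alisertib libraries. On the log2 scale the distance between libraries was 37.8 to 42.9 within TVB-3166, 33.7 to 40.4 within alisertib and 67.0 to 77.2 between the groups, so the groups lay farther apart than any pair of replicates. Of 10 luminal and HER2 breast markers 9 were measured, and KRT8, KRT18, KRT19, EPCAM, GATA3 and FOXA1 did not pass the test between the drugs. GRB7 and ERBB2, neighbours in the HER2 amplicon, were higher in TVB-3166, by 0.58 and 0.33, and 1 marker was lower. One leukocyte marker, CD68, was measured, at 25.6, 29.6 and 30.3 CPM (read counts scaled to the size of the library) in TVB-3166 against 4.78, 5.75 and 5.06 in alisertib; PTPRC, CD3E, CD79A, LYZ and CD14 were not analysed here. Of the fibroblast, endothelial and adipocyte markers COL1A1, CDH5 and PLIN1 did not pass, and VWF was lower in TVB-3166, at 0.137 to 0.348 CPM against 0.749 to 1.04 CPM. The 13 coding and 2 ribosomal transcripts of the mitochondrial genome took 4.10 to 5.56% of the reads in TVB-3166, 2.49 to 4.24% in alisertib and 1.41 to 3.28% in untreated day-7 libraries, with replicate 1 highest in each, and 9 of the 15 were higher in TVB-3166 than in alisertib. Leaving these 15 transcripts out of the fit, an alternative added after seeing the data, kept 99.6% of the calls and changed no call among the 187 other genes named by rule. Untreated day-0 replicate 1 stood apart from its group, with 8.73% of its reads mitochondrial against 1.36 and 1.69%, and the day-0 libraries enter only as levels and as an alternative reference.

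The drugs left widely different transcriptomes. Between TVB-3166 and alisertib, 2637 genes were higher and 2786 lower in TVB-3166 at an adjusted p under 0.05 (edgeR quasi-likelihood test, Benjamini-Hochberg adjustment), that is 19.1% and 20.2% of the genes tested. Counts of list members between the drugs below are to be read beside these 19.1% and 20.2%. Most of the differences were small, with a median absolute log2 fold change of 0.53 among the called genes. With a fold change of at least 2 and an unadjusted p under 0.05, 457 genes (3.31%) were higher and 645 (4.67%) lower. In 3456 genes every TVB-3166 library lay above every alisertib library, and in 3574 every one lay below. Together these are 50.9% of the genes tested, so a lack of overlap alone does not single out a gene. Fold changes below are TVB-3166 over alisertib on the log2 scale with their standard error, levels are CPM scaled with TMM factors in the order of the replicates 1, 2 and 3, gene positions are GRCh37 and promoters GRCh38.p14, and a gene is called higher or lower only at an adjusted p under 0.05 of that test. The labels do not say that the replicates were separate cultures, so the p-values measure the spread between these libraries, which may be technical.

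The targets themselves came first. FASN (gene ID 2194, chr17:80036214-80056170, minus strand, GRCh37) stood at 15335, 11359.6 and 15963 CPM in TVB-3166 and 9068, 9395 and 9254 CPM in alisertib. Every TVB-3166 library was above every alisertib library, by 0.62 ± 0.12 on the log2 scale (adjusted p = 0.00226). The untreated day-7 libraries held 6341, 5750.3 and 5286 CPM, so that FASN was above untreated cells under both drugs, by 1.30 with TVB-3166 (adjusted p = 1.79e-05) and by 0.69 with alisertib (adjusted p = 8.02e-04); these comparisons share the untreated libraries. AURKA (gene ID 6790, chr20:54944445-54967393, minus strand), the kinase that alisertib inhibits, stood at 78.1, 55.4 and 54.4 CPM in TVB-3166, 191, 150.4 and 147 CPM in alisertib and 176, 154 and 164 CPM in untreated day-7 cells. The alisertib libraries overlapped the untreated ones (-0.01, adjusted p = 0.975), whereas TVB-3166 was below both, with a fold change over alisertib of -1.38 ± 0.14 (adjusted p = 3.24e-05). AURKB, the kinase of the chromosomal passenger complex, was also lower in TVB-3166 (6.52, 3.32 and 4.69 CPM) than in alisertib (8.89, 8.21 and 10.1 CPM), at -0.91 ± 0.21 (adjusted p = 0.0057), and lower in alisertib than in untreated cells (-0.80, adjusted p = 0.00201).

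Genes of sterol synthesis were higher in TVB-3166. Of 20 enzymes of the pathway from acetyl-CoA to cholesterol, 15 were higher and none lower in TVB-3166 than in alisertib, against 19.1% and 20.2% of all genes. The median log2 fold change of the 20 was 0.80, beside 8.1e-04 over all genes. FDPS (gene ID 2224, chr1:155278539-155290457, plus strand), which makes farnesyl diphosphate, led the list at 1157, 494 and 721 CPM in TVB-3166 and 262, 228 and 242 CPM in alisertib. TVB-3166 replicate 1 was the highest and replicate 2 the lowest of its group in FDPS, MSMO1, IDI1, MVD and HMGCS1, and in each of these genes the lowest TVB-3166 library still exceeded the highest alisertib library. The fold change of FDPS was 1.70 ± 0.23 (adjusted p = 1.97e-04). MSMO1 and IDI1 followed, at 1.48 and 1.35. EBP, NSDHL, PMVK and MVK were among the 5 that did not pass the test, with values of 0.01 to 0.20. Against untreated day-7 cells 16 of the 20 were higher with TVB-3166 and 12 with alisertib, with medians of 1.26 and 0.39; of all genes, 25.4% were higher and 26.1% lower with TVB-3166 and 9.55% and 9.49% with alisertib. Without alisertib replicate 3 the count for alisertib was 9.

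The regulators and uptake genes of the SREBP system were measured next. Of 14 genes, 10 were higher in TVB-3166 and 1, TMEM97, a regulator of NPC1, was lower, with a median of 0.33. STARD4, a carrier of cholesterol between membranes, held 139.9, 131 and 143 CPM against 39.3, 46.8 and 43.0 CPM, groups that were far apart, with a fold change of 1.68 ± 0.08 (adjusted p = 4.47e-07). INSIG1, which holds SREBP in the endoplasmic reticulum and is itself an SREBP target, held 422, 258 and 349 CPM against 132, 136 and 147 CPM. It differed by 1.31 ± 0.14 (adjusted p = 4.77e-05). SREBF1, the factor that favours fatty acid synthesis genes, was higher by 0.86 ± 0.11 (adjusted p = 1.01e-04), and SREBF2, the factor that favours sterol genes, by 0.27. SCAP, MBTPS1 and MBTPS2, which escort and cleave SREBP, did not pass the test, at -0.08, -0.06 and 0.15. The count of 10 fell to 6 without alisertib replicate 1, without alisertib replicate 2, without TVB-3166 replicate 3 or with all 24 libraries in the fit.

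Among the sterol and SREBP genes, 28 of 34 had a promoter in the RefSeq table (GRCh38.p14, 250 bases before to 50 after the start). The SREBP element TCACNCCAC, searched on both strands, was in 1 of the 28 (3.57%), against 1.16% of all 27305 promoters and 1% of those of the genes tested. The 1 promoter of the 28 that held it is of SREBF2, printed 5′ to 3′ on the gene's strand with the element in capitals.
SREBF2, chr22:41832917-41833035, plus strand: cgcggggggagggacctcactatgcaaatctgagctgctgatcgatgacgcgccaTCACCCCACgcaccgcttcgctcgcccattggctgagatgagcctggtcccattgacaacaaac
The element lies 133 bases before the annotated start. The other 27 promoters did not hold these letters in this window.

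Cholesterol export showed the same direction. ABCG1, which moves cholesterol to high density lipoprotein and is a target of LXR, was at 186, 194 and 204 CPM in TVB-3166 and 45.2, 57.4 and 54.1 CPM in alisertib. The alisertib libraries overlapped the 44.4, 48.8 and 43.5 CPM of untreated cells, and TVB-3166 was 3.72-fold above alisertib (log2 1.90 ± 0.09, adjusted p = 4.64e-07). ABCA1, the transporter that loads apolipoprotein A-I, held 9.47, 7.31 and 8.83 CPM against 2.58, 2.57 and 1.96 CPM. Its fold change was 1.85 ± 0.18 (adjusted p = 1.86e-05). Of the 9 LXR targets and efflux genes tested, 6 were higher and 1 lower, with a median of 0.78. MYLIP, a ubiquitin ligase, PLTP, which transfers phospholipids, and LPCAT3, which places polyunsaturated chains in phospholipids, were higher by 0.83, 0.80 and 0.78. APOE, at 4.05, 2.72 and 3.29 CPM against 5.63, 4.49 and 7.30 CPM, was the lower one (-0.80 ± 0.22, adjusted p = 0.0127), a call lost without alisertib replicate 3 (adjusted p = 0.0656) or TVB-3166 replicate 2 (adjusted p = 0.0538).

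Fatty acid synthesis genes were less uniform. Of 20 genes, 7 were higher in TVB-3166, 2 lower and 11 past no threshold, with a median of 0.23. ACSS2, which makes acetyl-CoA from acetate, held 528, 283 and 421 CPM in TVB-3166 and 120.0, 134 and 117 CPM in alisertib. The groups did not overlap, and the fold change was 1.73 ± 0.18 (adjusted p = 3.04e-05). SCD (chr10:102106990-102124583, plus strand), the desaturase that makes oleate from stearate, held 14118, 11383 and 14130.5 CPM against 5647, 6307 and 6057 CPM, among the 5 largest gains in CPM of the genes with a fold change of at least 2, with a log2 fold change of 1.14 ± 0.11 (adjusted p = 1.85e-05). SLC25A1, the mitochondrial citrate carrier, was higher by 0.65 ± 0.14 (adjusted p = 0.00312). ACACA, the cytosolic acetyl-CoA carboxylase, and ACLY, which makes acetyl-CoA from citrate, stood at 0.24 and 0.23 and did not pass. ACACB, the carboxylase at the mitochondrial surface whose product malonyl-CoA holds back fatty acid import, was at 21.5, 23.6 and 26 CPM in TVB-3166 and 51.7, 49.8 and 60.1 CPM in alisertib. It was lower in TVB-3166 in every library, at -1.18 ± 0.10 (adjusted p = 8.99e-06). Without TVB-3166 replicate 2, 11 genes of the list were higher.

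Several targets of the PPAR receptors were lower in TVB-3166. ANGPTL4 (gene ID 51129, chr19:8428173-8439254, plus strand), a secreted inhibitor of lipoprotein lipase, was at 0.335, 0.474 and 0.308 CPM in TVB-3166 and 16, 19.3 and 16.4 CPM in alisertib. Untreated day-7 cells held 11.5, 10.2 and 8.34 CPM, between the drugs. The level in alisertib was 45.6-fold that in TVB-3166, a log2 fold change of -5.51 ± 0.20 (adjusted p = 6.80e-08). PDK4 (chr7:95212811-95225828, minus strand), the kinase that shuts pyruvate dehydrogenase when fat is burnt, held 0.569, 0.569 and 0.445 CPM against 4.68, 6.31 and 6.47 CPM. The groups were far apart (-3.46 ± 0.23, adjusted p = 2.42e-06). Against untreated day-7 cells PDK4 moved in opposite directions, -2.41 with TVB-3166 (adjusted p = 1.77e-04) and 1.06 with alisertib (adjusted p = 0.0205, lost in 4 of the 6 fits that left out 1 library). CPT1A, which carries out the first step of fatty acid import into mitochondria, was at 109, 117 and 124 CPM in TVB-3166, 310.2, 264 and 298 CPM in alisertib and 286, 277 and 287 CPM in untreated cells. It was lower in TVB-3166, at -1.31 ± 0.08 (adjusted p = 2.11e-06). PLIN2, the coat of lipid droplets, and SLC25A34, a mitochondrial carrier, were lower, at -1.65 ± 0.20 and -3.38 ± 0.34.

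The oxidation enzymes behind that step differed little between the drugs. Of the 19 genes tested in the PPAR and oxidation list 2 were higher, 9 lower and 8 past no threshold, with a median of -0.20. HADHA, HADHB, CPT2, ACAA2 and ETFA lay between -0.20 and -0.06 and did not pass. ACADVL, ETFB and ETFDH were lower, at -0.51 to -0.42. PPARA, the receptor most tied to fat burning, was higher by 0.58 and ACADM, the medium-chain dehydrogenase, by 0.39, while PPARG and PPARD did not pass, at -0.08 and -0.11. OLAH (gene ID 55301, chr10:15074226-15115852, plus strand), the thioesterase that releases medium-chain fatty acids from FASN, was at 0.167, 0.253 and 0.103 CPM in TVB-3166 and 2.42, 3.29 and 3.16 CPM in alisertib. Its fold change of -4.05 ± 0.33 (adjusted p = 6.48e-06) was the lowest after that of ANGPTL4 among the called genes with no overlap and at least 1 CPM in the higher group.

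Genes of carbon handling were called in both directions. Of 28 genes of glycolysis, lactate and pyruvate handling, 7 were higher and 10 lower in TVB-3166, beside 19.1% and 20.2% of all genes, so that the share called higher lay near that of all genes. The median was -0.11. In the pyruvate dehydrogenase switch the activating phosphatase PDP1 was higher and the inactivating kinases were lower. PDP1, the phosphatase that activates the complex, held 3.65, 5.82 and 5.10 CPM in TVB-3166 and 1.76, 2.06 and 2.28 CPM in alisertib, a difference of 1.25 ± 0.21 (adjusted p = 8.52e-04). The kinases that inactivate the complex, PDK1, PDK2, PDK3 and PDK4, were all lower, at -0.38, -0.74, -0.78 and -3.46. SLC16A1, the lactate transporter MCT1, held 8.26, 11.8 and 9.01 CPM against 27.5, 23.8 and 28.2 CPM, with every TVB-3166 library the lower (-1.45 ± 0.14, adjusted p = 1.85e-05), whereas its relative SLC16A3 (MCT4) was higher by 0.49. LDHB was lower, at -0.79 ± 0.08, and LDHA did not pass, at 0.06. ALDOC and PFKFB3, an aldolase and the main activator of phosphofructokinase, were higher by 0.98 and 0.84.

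**Figure D1:**
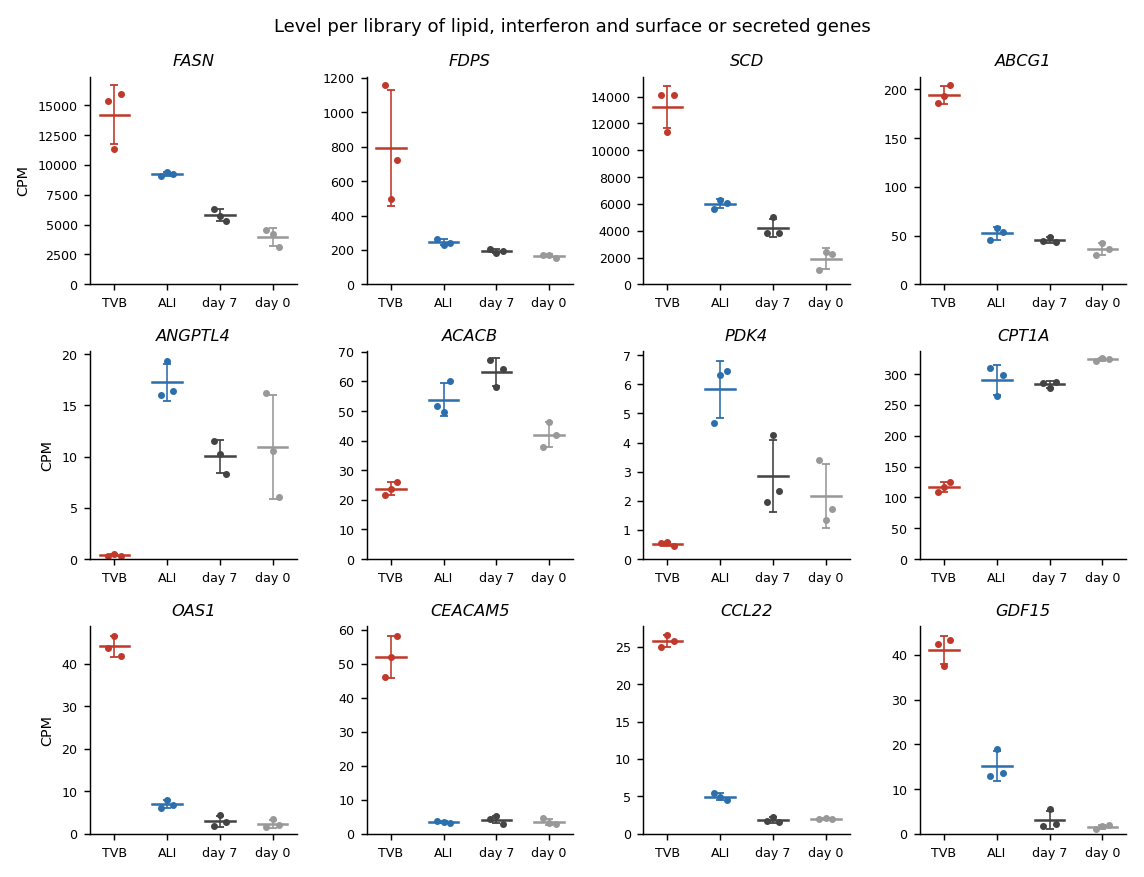
Level in CPM (vertical axis, from 0) of 12 genes in each library of TVB-3166 (TVB), alisertib (ALI), untreated day 7 and untreated day 0, with one point per library, a bar at the mean and whiskers of 1 SD (n = 3). In ANGPTL4, ACACB, PDK4 and CPT1A every TVB-3166 library lies below every alisertib library, and in the other 8 genes every one lies above. Of all genes tested, 50.9% had no overlap between these groups.

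Interferon-stimulated genes were higher in TVB-3166. OAS1 (gene ID 4938, chr12:113343661-113371024, plus strand), which senses double-stranded RNA and activates RNase L, was at 43.8, 46.6 and 41.8 CPM in TVB-3166, 6.07, 7.92 and 6.83 CPM in alisertib and 1.76, 4.40 and 2.67 CPM in untreated day-7 cells. The groups formed steps without overlap, and TVB-3166 exceeded alisertib by 2.66 ± 0.11 (adjusted p = 1.81e-07). OAS2 (chr12:113416200-113449528, plus strand), of the same family, was at 23.1, 28.5 and 23.2 CPM, 4.15, 6.15 and 4.04 CPM and 0.529, 1.04 and 1.19 CPM in the same order. Its fold change was 2.38 ± 0.17 (adjusted p = 3.21e-06). Of 25 interferon-stimulated genes tested 19 were higher and none lower, with a median of 0.80. IRF7, the factor that amplifies the interferon response, and IRF9, the subunit of the complex ISGF3 that reads the DNA element, were higher by 1.6 and 1.0. STAT2, of the same complex, was higher by 0.52, whereas BST2, DDX58, IFIT5, HERC6 and USP18 were among the 6 that did not pass. Against untreated day-7 cells 23 of the 25 were higher with TVB-3166 and 16 higher and 1 lower with alisertib (12 higher without alisertib replicate 3), with medians of 1.54 and 0.77. OAS1 was higher than in untreated cells under both drugs, by 3.93 (adjusted p = 7.54e-07) with TVB-3166 and 1.27 (adjusted p = 0.0109) with alisertib.

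PARP14 and PARP9, mono-ADP-ribosyltransferases of the interferon response, stood for the called members with the interferon response element GAAANNGAA in front of the start. PARP14 held 4.08, 5.57 and 6.06 CPM in TVB-3166 and 1.45, 2.14 and 1.81 CPM in alisertib (1.53 ± 0.22, adjusted p = 2.35e-04), and PARP9 4.08, 4.56 and 4.86 CPM and 1.19, 2.01 and 1.58 CPM (1.49 ± 0.21, adjusted p = 2.65e-04). In both genes the groups did not overlap. Of the 20 interferon-stimulated genes with a RefSeq promoter, 14 (70.0%) held the element on either strand, against 8.37% of all promoters and 6.46% of the promoters of the genes tested. Stretches of the promoters are shown 5′ to 3′ on the gene's strand with the element in capitals (GRCh38.p14).
PARP14, chr3:122680755-122680838, plus strand: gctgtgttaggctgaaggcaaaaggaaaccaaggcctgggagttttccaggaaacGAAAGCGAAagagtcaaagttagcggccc
PARP9, chr3:122564301-122564395, minus strand: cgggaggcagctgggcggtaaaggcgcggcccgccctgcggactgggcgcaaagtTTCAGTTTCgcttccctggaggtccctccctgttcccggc
In PARP14 the element begins 29 bases before the start, and in PARP9 it lies on the opposite strand and begins 40 bases before the start. These are matches of letters, and no binding was measured.

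Antigen presentation and NF-kB genes differed less. Of 14 genes of MHC class I presentation 7 were higher and none lower, with a median of 0.32. NLRC5, the transactivator of class I genes, held 2.81, 2.31 and 2.16 CPM against 0.911, 1.2 and 0.918 CPM, with no overlap (1.26 ± 0.23, adjusted p = 0.00138). B2M, the light chain, was higher by 0.54 ± 0.09 (adjusted p = 5.54e-04), and HLA-B and HLA-C, whose reads can be shared among near-identical genes, stood at 0.17 and 0.33 and did not pass. CD274, which encodes PD-L1, was at 1.57, 2.72 and 3.01 CPM in TVB-3166 and 3.14, 3.13 and 3.44 CPM in alisertib. The libraries did not overlap, but the difference did not pass, at -0.41 ± 0.24 (adjusted p = 0.189). Of 19 NF-kB subunits and targets 5 were higher and 2 lower, beside 19.1% and 20.2% of all genes. BIRC3, an inhibitor of cell death, led at 1.17 ± 0.13 (adjusted p = 4.30e-05), followed by ICAM1 at 0.94. With the replicate number as a block 9 of the 19 were higher, and without alisertib replicate 2 or 3 it was 3.

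Of 20 secreted factors known from senescent cells 10 were higher in TVB-3166, 2 lower and 8 past no threshold. CCL22 (chr16:57392695-57400101, plus strand), a chemokine that attracts regulatory T cells, was at 24.9, 26.5 and 25.7 CPM in TVB-3166, 5.50, 4.92 and 4.48 CPM in alisertib and 1.65, 2.26 and 1.54 CPM in untreated day-7 cells. The groups stood apart in that order, and the difference between the drugs was 2.38 ± 0.11 (adjusted p = 4.47e-07). GDF15 (chr19:18485541-18499986, plus strand), a stress cytokine, was at 42.4, 37.6 and 43.4 CPM, 13, 19 and 13.5 CPM and 1.85, 5.50 and 2.14 CPM. The difference between the drugs was 1.44 ± 0.14 (adjusted p = 1.80e-05), and both drugs were above untreated cells, by 3.72 (adjusted p = 4.15e-06) and 2.29 (adjusted p = 0.00185). LCN2 (chr9:130911350-130915732, plus strand), which binds iron-loaded siderophores, was at 12.2, 23.3 and 22.0 CPM in TVB-3166 and 3.27, 7.44 and 4.78 CPM in alisertib, with replicate 1 the lowest of each group. It differed by 1.89 ± 0.29 (adjusted p = 3.89e-04). Also higher were CX3CL1 at 1.48 and PIGR, the receptor that carries IgA across epithelia, at 1.54. Lower were ANGPTL4 and IGFBP5, an IGF-binding protein, at -1.15, and the median was 0.52. IGFBP3, TIMP1 and AREG did not pass, at 0.11 to 0.23. IL6, CXCL8, IL1A and IL1B were not analysed here.

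CDKN1A (gene ID 1026, chr6:36644237-36655114, plus strand), which encodes the CDK inhibitor p21, separated the drugs. It was at 47.2, 36.1 and 39.6 CPM in TVB-3166, 11, 12.9 and 9.42 CPM in alisertib and 10.8, 9.87 and 14.9 CPM in untreated day-7 cells. The alisertib libraries overlapped the untreated ones (-0.08, adjusted p = 0.781), and TVB-3166 was above alisertib in every library, by 1.89 ± 0.13 (adjusted p = 3.27e-06). CDKN1B, which encodes p27, held 50.5, 46.5 and 47.4 CPM against 43.3, 43.8 and 42.7 CPM. The libraries did not overlap, but the difference of 0.15 ± 0.07 did not pass (adjusted p = 0.113). Of the 7 CDK inhibitor genes tested CDKN1A was higher and 3 were lower, beside 19.1% and 20.2% of all genes. CDKN2B, which encodes p15, was at 17.3, 20.8 and 22.9 CPM in TVB-3166, 27.3, 24.8 and 28.3 CPM in alisertib and 8.22, 10.7 and 10.7 CPM in untreated cells, lower in TVB-3166 than in alisertib, at -0.40 ± 0.11 (adjusted p = 0.0152) and above untreated under both drugs. Without alisertib replicate 3 the difference between the drugs did not pass (adjusted p = 0.0593). CDKN2A was lower, at -0.38 ± 0.13 (adjusted p = 0.0361), a call lost in 6 of 15 alternatives, and CDKN3, a phosphatase expressed in mitosis, was the other lower member, at -1.04. The count of 3 was 1 without alisertib replicate 3. CDKN1C was not analysed here.

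Genes of DNA replication were lower in TVB-3166 almost throughout. Of 41 genes of replication licensing and DNA synthesis 40 were lower and none higher in TVB-3166 than in alisertib, with a median of -1.19; PRIM1, a primase subunit, did not pass, at -0.41. In bulk libraries fewer cells in S phase and less RNA per cell cannot be told apart. CDC6 (chr17:38444131-38460909, plus strand), which loads the MCM helicase, was at 133, 123 and 122 CPM in TVB-3166, 381, 376 and 403 CPM in alisertib and 393, 360.5 and 434 CPM in untreated day-7 cells. Alisertib and untreated libraries overlapped, and TVB-3166 was below both, with a fold change over alisertib of -1.62 ± 0.07 (adjusted p = 4.47e-07). MCM10 (chr10:13203558-13253110, plus strand), which helps to start the fork, was at 14.5, 13.2 and 13.5 CPM in TVB-3166 and 42.6, 47.2 and 52.7 CPM in alisertib. It was the lowest of the list at -1.79 ± 0.10 (adjusted p = 8.90e-07). The helicase subunits MCM2 to MCM7 were all lower, from -1.59 for MCM2 to -0.68 for MCM4, as were ORC1 and ORC6 of the origin recognition complex, at -1.61 and -1.46, and RRM2 and TYMS, which make deoxynucleotides, at -1.41 and -1.25. Against untreated day-7 cells 41 of 41 were lower with TVB-3166 and 18 with alisertib, where the count was 23 with the replicate block and 30 against untreated day-0 cells. That count of 18 was 10 to 12 without untreated day 7 replicate 1 or 3 or without any one of the 3 alisertib libraries, and 21 without untreated day 7 replicate 2. The medians were -1.42 and -0.25.

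Regulators of G1 and S phase were mostly lower too. E2F2 (chr1:23832930-23857725, minus strand), an activator of S phase genes, was at 5.62, 3.99 and 5.21 CPM in TVB-3166 and 24.9, 18.4 and 23.7 CPM in alisertib, with every TVB-3166 library below every alisertib library. It differed by -2.18 ± 0.16 (adjusted p = 3.90e-06), the largest difference among 20 regulators of G1 and S phase. E2F1 (chr20:32263283-32274191, minus strand) was at 16.9, 13.2 and 14.5 CPM against 39.9, 42.4 and 49.6 CPM, with a fold change of -1.57 ± 0.11 (adjusted p = 3.69e-06). Of the 20 regulators 15 were lower and 2 higher, with a median of -0.79. MYBL2 (B-MYB) and FOXM1, activators of mitotic genes, were lower, at -1.36 ± 0.12 and -1.26 ± 0.13. CCNE1, CCNE2 and CDK2, which form the kinase of S phase entry, were lower, at -0.71, -1.09 and -1.11, while CCND1, CDK4 and RB1 did not pass, at 0.23, -0.03 and 0.09. RBL2, which encodes the DREAM subunit p130, was higher by 0.41 and its relative RBL1 (p107) was lower, at -0.78.

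The letters TTTCCCGC or TTTGGCGC, taken as E2F sites and searched on both strands, were in 19 of 48 promoters (39.6%) of the replication and G1 to S genes, in 3 of 60 (5.0%) of the mitotic genes and in 2.27% of all promoters. Of the promoters of the genes tested, 3.66% held them, so that the share of the mitotic genes lay near it. The promoters of E2F2 and E2F1, the called members with the largest differences that hold a site before the start, are shown 5′ to 3′ on the gene's strand with the site in capitals (RefSeq, GRCh38.p14).
E2F2, chr1:23531234-23531330, minus strand: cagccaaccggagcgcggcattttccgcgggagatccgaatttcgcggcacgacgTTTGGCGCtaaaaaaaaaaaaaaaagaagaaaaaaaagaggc
E2F1, chr20:33686386-33686460, minus strand: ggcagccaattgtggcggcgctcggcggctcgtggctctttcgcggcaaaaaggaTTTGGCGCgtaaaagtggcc
The site begins 42 bases before the start in E2F2 and 20 in E2F1.

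Mitotic genes were lower in the cells whose mitotic kinase had not been inhibited. Here too, fewer cells near mitosis and less RNA per cell cannot be told apart in bulk libraries. Of 26 Aurora kinase and mitotic entry genes 22 were lower and none higher in TVB-3166, with a median of -1.12, and of 31 kinetochore, checkpoint and spindle genes all 31 tested were lower, with a median of -1.05. CDC20 (chr1:43824652-43828874, plus strand), the activator of the anaphase promoting complex, was at 43.6, 32.6 and 33.9 CPM in TVB-3166, 122, 102 and 102 CPM in alisertib and 109, 87.8 and 96.1 CPM in untreated day-7 cells. Alisertib overlapped untreated cells, and TVB-3166 was below alisertib, at -1.56 ± 0.12 (adjusted p = 4.09e-06). MAD2L1 (chr4:120976778-120988013, minus strand), the checkpoint protein MAD2, was at 21.4, 20.4 and 19.8 CPM, 58.6, 57.7 and 61.3 CPM and 53.8, 58.9 and 60.8 CPM in the same order. The difference between the drugs was -1.53 ± 0.08 (adjusted p = 5.43e-07). PKMYT1, the kinase that holds CDK1 inactive, and ESPL1, which encodes separase, were lower, at -1.75 ± 0.16 and -1.5 ± 0.15. Partners of Aurora kinase A were lower too, TPX2, its activator at the spindle, at -1.10, BORA at -0.98, TACC3 at -1.4 and PLK1, which it activates, at -1.22. Of the chromosomal passenger complex of Aurora kinase B, CDCA8 (borealin), BIRC5 (survivin) and INCENP were lower, at -1.4, -1.42 and -0.75. WEE1, CDC25B, FZR1 and AURKC did not pass, at -0.26 to 0.16.

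Against untreated day-7 cells 22 of the 26 mitotic entry genes and 31 of the 31 kinetochore genes were lower with TVB-3166. With alisertib the counts were 8 and 7, 12 and 13 with the replicate block, and 19 and 14 against untreated day-0 cells. Against day-7 cells they were 4 and 5 without untreated day 7 replicate 1, 3 and 3 without untreated day 7 replicate 3, 2 and 2 without alisertib replicate 2, 2 and 3 without alisertib replicate 3, and 11 and 11 without alisertib replicate 1. The medians of the entry genes were -1.37 and -0.11, and those of the kinetochore genes -1.34 and -0.21. Of 14 cytokinesis genes 10 were lower and 2 higher in TVB-3166 than in alisertib, with a median of -1.0. KIF20B, a kinesin of the midzone, was lower, at -1.43 ± 0.12, CIT, the citron kinase of the midbody, at -1.16 ± 0.14, and ANLN, the scaffold of the contractile ring, at -1.10 ± 0.12. The members that were higher, RHOA at 0.61 and CHMP4B at 0.35, act in many other processes, the actin cytoskeleton and membrane scission.

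The CHR letters TTTGAA, searched on both strands, were in 36 of the 60 promoters (60.0%) of the mitotic genes, in 2 of 48 (4.17%) of the replication and G1 to S genes and in 15.9% of all promoters. Of the promoters of the genes tested, 10.1% held them. The promoters of CDC20 and ESPL1 are shown as the called members with the largest differences that hold the letters before the start, 5′ to 3′ on the gene's strand with the letters in capitals (RefSeq, GRCh38.p14).
CDC20, chr1:43358861-43358976, plus strand: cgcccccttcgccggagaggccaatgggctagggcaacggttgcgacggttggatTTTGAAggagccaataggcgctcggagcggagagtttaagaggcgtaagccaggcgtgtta
ESPL1, chr12:53268213-53268298, plus strand: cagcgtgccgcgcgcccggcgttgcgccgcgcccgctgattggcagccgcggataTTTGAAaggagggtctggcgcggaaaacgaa
The letters shown begin 65 bases before the start in CDC20 and 31 in ESPL1. CDC20 holds 2 matches before the start, and the other lies upstream of the printed stretch. No motif searched here contains another, although TTTGAA and GAAANNGAA can share letters where they meet.

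**Figure D2:**
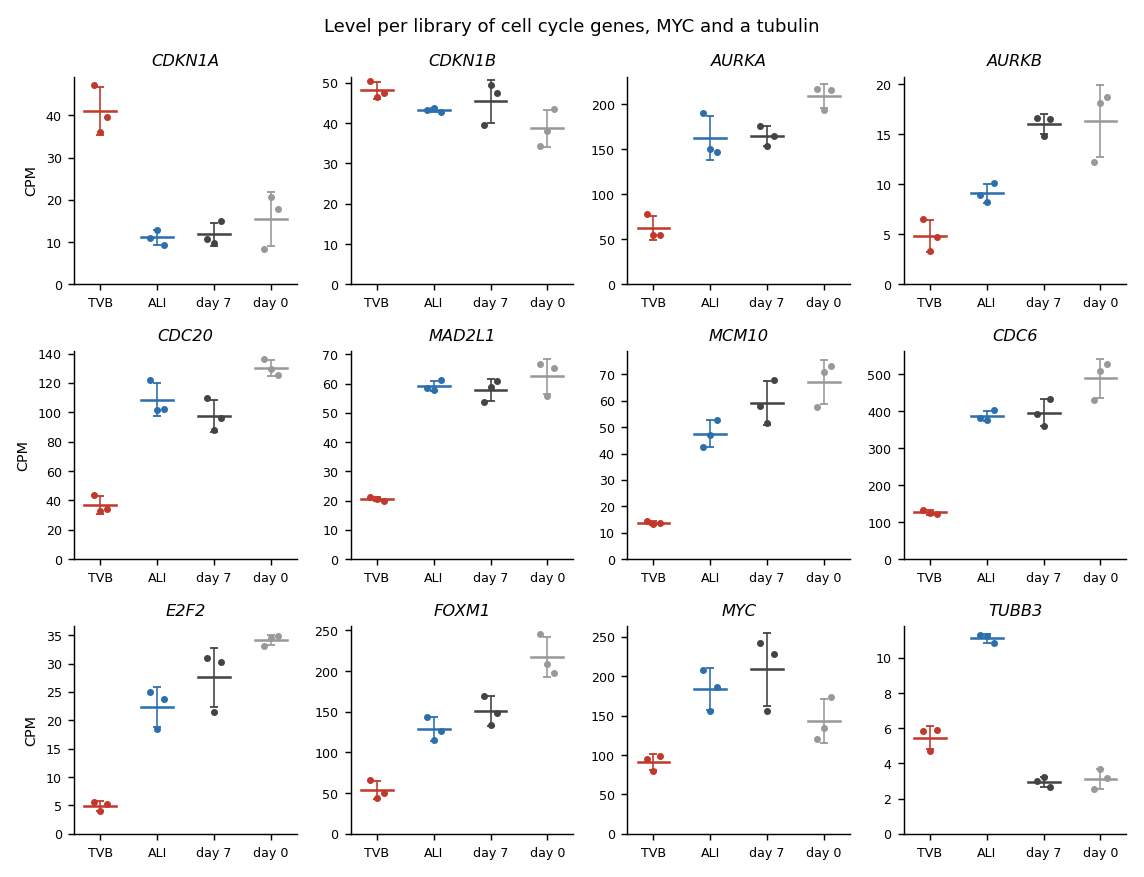
Level in CPM (vertical axis, from 0) of 12 genes in each library of TVB-3166 (TVB), alisertib (ALI), untreated day 7 and untreated day 0, with one point per library, a bar at the mean and whiskers of 1 SD (n = 3). In AURKA, CDC20, MAD2L1, MCM10, CDC6 and E2F2 the TVB-3166 libraries lie below all other libraries shown, and in CDKN1A above all others.

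Ribosome biogenesis genes were lower as well. Of 32 genes 23 were lower and none higher, with a median of -0.36, nearer to 0 than that of the replication genes. MYC (chr8:128747680-128755197, plus strand), which drives the group, was at 94.4, 79.3 and 99.1 CPM in TVB-3166 and 208, 157 and 186 CPM in alisertib. The alisertib libraries lay within the 242, 156 and 228 CPM of untreated cells, and TVB-3166 was lower, at -1.02 ± 0.11 (adjusted p = 4.87e-05). BOP1, MYBBP1A and LYAR, nucleolar proteins, were lower, at -0.92 ± 0.09, -0.75 ± 0.07 and -0.72 ± 0.10. NPM1, GNL3 and NOB1 did not pass, at 0.02 to 0.13.

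Tubulins set the drugs apart in another way. Of 13 tubulins 9 were lower and 2 higher in TVB-3166, with a median of -0.58. TUBB3 (chr16:89987800-90005169, plus strand), the beta-tubulin best known from neurons, was at 5.82, 4.71 and 5.89 CPM in TVB-3166, 11.3, 11.2 and 10.8 CPM in alisertib and 2.98, 3.24 and 2.67 CPM in untreated day-7 cells. It was highest in alisertib and lowest in untreated cells, and the drugs differed by -1.02 ± 0.13 (adjusted p = 1.45e-04). TUBA4A was at 37, 40.9 and 36.3 CPM, 81.3, 77.1 and 72.2 CPM and 48.4, 44.6 and 47.8 CPM, above untreated cells with alisertib (0.73, adjusted p = 3.58e-04) and below with TVB-3166 (-0.30, adjusted p = 0.0124, lost in 1 of the 6 fits that left out 1 library). TUBB and TUBA1B, the major tubulins of dividing cells, were lower in TVB-3166 than in alisertib, at -0.92 ± 0.12 and -0.80 ± 0.11. Tubulin genes share long near-identical stretches, and how reads shared among them were counted is not given in the sources used here.

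Targets of the stress factor ATF4 were higher in TVB-3166. Of 28 genes of the integrated stress response 21 were higher and 1, PSPH, lower, with a median of 0.72. ATF4 itself was higher by 0.78. CHAC1, which breaks down glutathione, was at 15.9, 40.0 and 20.4 CPM in TVB-3166 and 6.25, 9.68 and 5.25 CPM in alisertib, replicate 2 being the highest of each group. It differed by 1.85 ± 0.32 (adjusted p = 8.62e-04). DDIT4, an inhibitor of mTORC1, held 341, 595 and 463 CPM against 117, 219 and 148 CPM, again with replicate 2 the highest (1.53 ± 0.23, adjusted p = 3.13e-04). NIBAN1 was higher by 2.18 ± 0.32, PCK2, the mitochondrial PEP carboxykinase, by 1.5 ± 0.13 and SLC7A11, the cystine importer, by 1.45 ± 0.09. The amino acid transporters SLC3A2 and SLC7A5 did not pass, at -0.03 and -0.21. Of 16 genes of the unfolded protein response of the endoplasmic reticulum 4 were higher and 5 lower, beside 19.1% and 20.2% of all genes. The median was -0.08, and HSPA5, the main chaperone of this response, did not pass, at -0.01. Without alisertib replicate 3 the counts of 4 and 5 were 2 and 3, and 2 were higher without TVB-3166 replicate 2 or 3.

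Of 14 BCL-2 family genes 5 were higher and 1 lower, beside 19.1% and 20.2% of all genes. BBC3 (PUMA), a BH3-only activator of apoptosis, was at 17.4, 13.5 and 20.1 CPM in TVB-3166 against 4.27, 5.67 and 6.34 CPM in alisertib. The groups did not overlap (1.64 ± 0.18, adjusted p = 4.42e-05). BMF and BIK, both BH3-only proteins, were higher by 1.49 ± 0.11 and 1.31 ± 0.13. The protective members BCL2L1 and MCL1 were higher by 0.48 and 0.39, and BID was lower, at -0.44 ± 0.09.

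Lysosomal and antioxidant genes leaned to TVB-3166. Of 30 lysosomal genes 16 were higher and 4 lower, with a median of 0.30. CTSS, cathepsin S, held 1.57, 2.37 and 2.77 CPM against 0.66, 0.455 and 0.747 CPM, with no overlap (1.84 ± 0.30, adjusted p = 6.00e-04). NPC2, which carries cholesterol inside lysosomes, held 83.6, 70.2 and 75.8 CPM against 35.4, 36.4 and 36.2 CPM (1.09 ± 0.08, adjusted p = 4.09e-06). CD63, NEU1 and LIPA, a membrane protein, the sialidase and the acid lipase, were higher by 1.0, 0.98 and 0.79. GLB1, which encodes the enzyme measured as senescence-associated beta-galactosidase, did not pass, at 0.15, and neither did LAMP1, at 0.15, nor the regulators TFEB and TFE3, at 0.26 and 0.01. GAA, MCOLN1 and CTSH were among the 4 lower genes, and without alisertib replicate 3 or TVB-3166 replicate 2 the count was 1, and without alisertib replicate 1 it was 2. Of 15 antioxidant genes of NRF2 10 were higher and 1, TXNRD1, lower, with a median of 0.62. FTL and FTH1, the ferritin chains, were higher by 1.32 ± 0.09 and 1.0 ± 0.15, and NQO1 by 0.65 ± 0.14. FTL and FTH1 have many processed pseudogenes, so their counts are uncertain.

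The highest fold change among genes at 1 CPM or more in TVB-3166 was that of a cell surface gene. CEACAM5 (gene ID 1048, chr19:42212504-42234353, plus strand), the carcinoembryonic antigen, was at 46.0, 51.9 and 58.3 CPM in TVB-3166, 3.83, 3.42 and 3.12 CPM in alisertib and 4.50, 5.10 and 3.03 CPM in untreated day-7 cells. Alisertib and untreated libraries overlapped, and TVB-3166 was 15.1-fold above alisertib (log2 3.92 ± 0.12, adjusted p = 3.88e-08). CEACAM6, its close relative, was at 378, 458 and 433 CPM against 94.4, 96.1 and 90.9 CPM. It differed by 2.17 ± 0.09 (adjusted p = 1.68e-07). S100P (chr4:6695605-6698897, plus strand), a calcium-binding ligand of the receptor RAGE, was at 369.8, 341 and 358 CPM, 43.0, 66.5 and 43.8 CPM and, in untreated cells, 64.5, 98.3 and 71.4 CPM. TVB-3166 was above alisertib by 2.80 ± 0.15 (adjusted p = 7.59e-07), and alisertib was below untreated (-0.59, adjusted p = 0.0426), a call lost in 4 of the 6 fits that left out 1 library. Of 16 genes of the CEACAM and S100 families 10 were higher and none lower, with a median of 0.55. Against untreated day-7 cells 6 were higher and 2 lower with TVB-3166, and 2 higher and 6 lower with alisertib. The medians were 0.42 and -0.26. Of all genes, 25.4% were higher and 26.1% lower with TVB-3166 and 9.55% and 9.49% with alisertib. Between the drugs, of 14 keratins KRT23, KRT86, KRT81 and KRT7 were higher, KRT23 by 1.56 ± 0.12, and KRT4 was lower. KRT81 and KRT86 are near-identical copies whose reads may be shared. Of 13 ERBB receptors, ligands and amplicon neighbours 5 were higher, ERBB3 by 0.70 ± 0.08 and ERBB2 by 0.33, and 3 lower, HBEGF at -1.08 ± 0.24. The keratin and ERBB counts stand beside 19.1% higher and 20.2% lower of all genes.

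Single genes outside the lists completed the extremes. At 1 CPM or more in TVB-3166, the other genes of the 10 highest were MGAM, a maltase-glucoamylase (3.20), PIP, the prolactin-induced protein (2.93), SDCBP2 (2.88), the receptor phosphatase PTPRH (2.84), the noncoding RNA LINC01269 (2.83), the serine protease TMPRSS4 (2.78), the sialyltransferase ST6GALNAC2 (2.68) and EGR1 (2.76). EGR1, an immediate early factor downstream of growth factor signalling, was at 12.5, 11.9 and 14.1 CPM in TVB-3166, 1.76, 2.11 and 1.79 CPM in alisertib and 28.4, 6.34 and 16.9 CPM in untreated cells. TVB-3166 lay within the untreated range, and alisertib was below untreated, at -3.18 (adjusted p = 0.00135). CCN2, a target of YAP and the first of the actin and YAP list, differed by 2.28 ± 0.14, at 22.6, 25.9 and 23.9 CPM against 6.19, 4.52 and 4.31 CPM. Of that list of 18, 6 were higher and 3 lower (1 lower without alisertib replicate 1), beside 19.1% and 20.2% of all genes.

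At the other end were CYP1A2 (-3.28), the aromatic amino acid transporter SLC16A10 (-3.13), the connexin gene GJA5 (-3.10), the pseudogene BPIFA4P (-3.08) and NPR3, the clearance receptor of natriuretic peptides (-2.75). GJA5 was at 1.44, 1.39 and 0.788 CPM in TVB-3166, 11.9, 9.74 and 9.48 CPM in alisertib and 36.3, 48.6 and 34.3 CPM in untreated cells. It was below untreated under both drugs, at -5.03 (adjusted p = 1.81e-07) and -1.92 (adjusted p = 8.19e-05). The imprinted noncoding RNA H19 (chr11:2016396-2025782, minus strand) followed the same order, at 0.803, 1.33 and 0.822 CPM, 4.56, 5.16 and 5.47 CPM and 64.5, 40.7 and 59.8 CPM, with a difference between the drugs of -2.35 ± 0.23 (adjusted p = 2.15e-05). KITLG, the ligand of the receptor KIT, held 159, 153 and 148 CPM against 610.4, 411 and 503 CPM and was lower in TVB-3166, at -1.73 ± 0.12; alisertib overlapped the 467, 510.4 and 502 CPM of untreated cells (0.06, adjusted p = 0.767). CYP1A1, a monooxygenase induced by the aryl hydrocarbon receptor, was at 137, 194 and 184 CPM in TVB-3166, 479.7, 815 and 654 CPM in alisertib and 54.1, 376 and 98.9 CPM in untreated cells. The drugs differed by -1.92 ± 0.18 (adjusted p = 1.76e-05), and the untreated libraries spread so widely that they overlapped TVB-3166. The study also names GLDC, CCDC3, CAPN8 and SDR16C5 from these libraries. It likewise names many genes given above, among them CEACAM5, S100P, ABCG1, FDPS, ANGPTL4, OLAH, OAS1, CCL22 and GDF15. The direction of all genes that the study names is therefore not independent evidence. GLDC, which breaks down glycine, was at 18.5, 16.4 and 17.3 CPM against 43.3, 38.1 and 46.5 CPM (-1.29 ± 0.10), and CCDC3 at 0.535, 0.474 and 0.445 CPM against 2.48, 1.61 and 2.90 CPM (-2.26 ± 0.30). The protease CAPN8 and the retinol dehydrogenase SDR16C5 were higher, by 1.56 ± 0.22 and 2.14 ± 0.14.

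**Figure D3:**
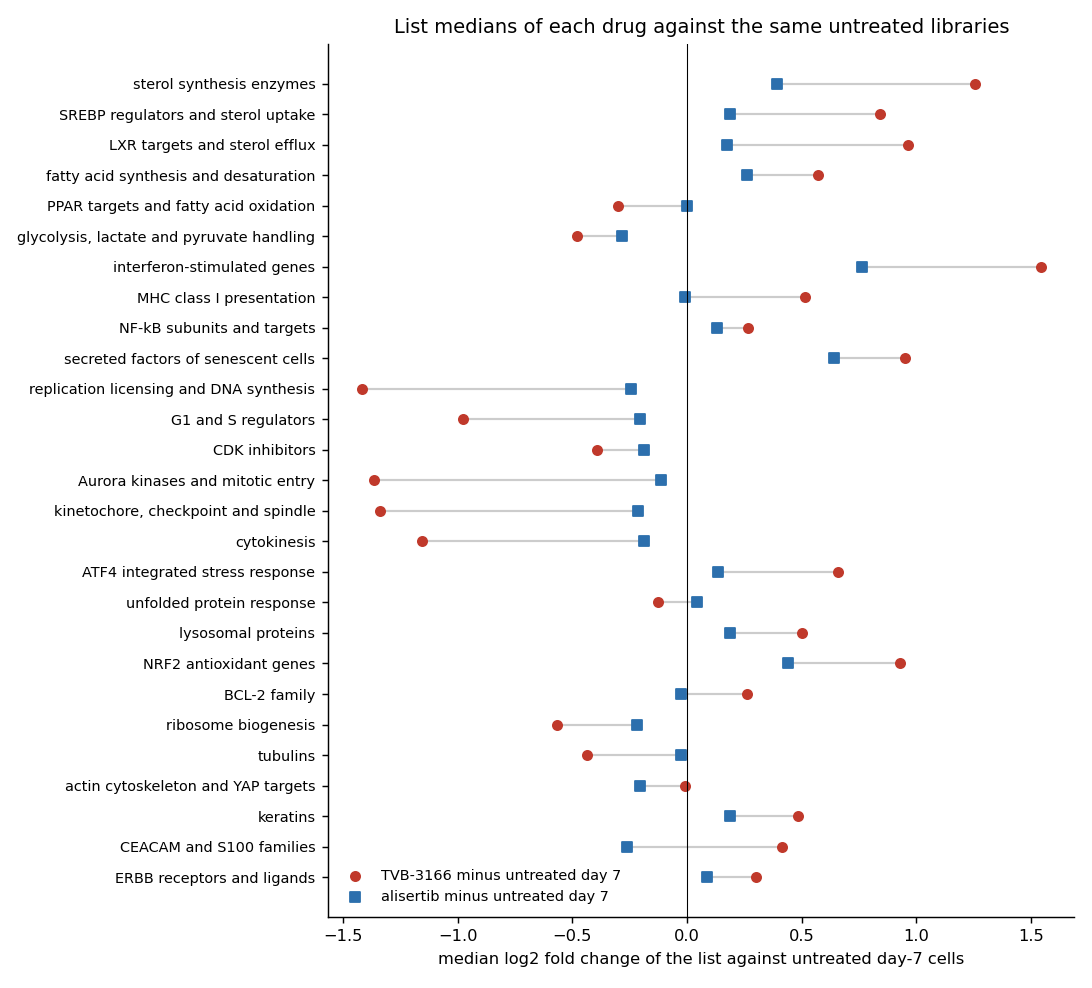
Median log2 fold change of each list (horizontal axis) against the same 3 untreated day-7 libraries, as red circles for TVB-3166 and blue squares for alisertib. For the replication list the medians are -1.42 and -0.25, and for the interferon list 1.54 and 0.77.

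The other drug arms give the scale of these levels, as mean ± SD of 3 libraries with no test. ND-646, an inhibitor of acetyl-CoA carboxylase and thus of the same pathway as TVB-3166, held CEACAM5 at 57.8 ± 7.85 CPM, ANGPTL4 at 0.429 ± 0.0388 CPM and CDKN1A at 55.7 ± 28.8 CPM, on the side of TVB-3166 (52.1 ± 6.16, 0.372 ± 0.0894 and 41.0 ± 5.68 CPM) rather than of alisertib (3.46 ± 0.36, 17.2 ± 1.80 and 11.1 ± 1.76 CPM). AURKA was at 33.1 ± 9.81 CPM with ND-646, 76.9 ± 11.2 CPM with the CDK4/6 inhibitor palbociclib, 119 ± 6.93 CPM with doxorubicin and 75.7 ± 25.3 CPM with bleomycin, and at 163 ± 24.3 CPM alisertib was the highest of the drug arms. OAS2 was at 8.01 ± 2.68 CPM with ND-646, below the 24.9 ± 3.12 CPM of TVB-3166, and at 1.25 ± 0.323, 12.5 ± 3.23 and 43.7 ± 9.51 CPM with palbociclib, doxorubicin and bleomycin.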

How the data were processed

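RNA-seq of SKBR3 cells was analysed in 6 of 24 libraries, with untreated day-7 and day-0 cells as references. Per the labels and the study's methods, the authors sequenced paired-end libraries, aligned them to GRCh37 with HISAT2, assembled them with StringTie and used DESeq2 on pairs of groups. The deposited table holds raw read counts per gene. Counter and strand settings are not given in the sources used here, and the labels name an mRNA kit where the methods name a total RNA kit.

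CPM were scaled with TMM factors. Genes kept by filterByExpr were tested with edgeR 4.0.16 (glmQLFit and glmQLFTest, R 4.3.3) in each pair of groups, and the scripts were checked on simulated counts. Alternatives were DESeq2 1.42.0, limma 3.58.1 (voom), other scalings and filters, all 24 libraries in one fit, the replicate number as a block, each library left out and, chosen after seeing the data, no mitochondrial transcripts. Same-numbered TVB-3166 and alisertib libraries deviated together (correlations of 0.18 to 0.30, 3 of 3 over 0.1), as did alisertib and untreated day-7 libraries (0.12 to 0.23). For TVB-3166 and untreated day-7 libraries this held only in part (0.04 to 0.23, 2 of 3 over 0.1). There the highest correlation between libraries of unlike number was 0.05. The labels do not say what a number marks, so any pairing is read from the data alone. The main fits used no replicate block, and p-values and calls are unpaired wherever the block is not named.

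Named genes were the 10 largest called changes in each direction without overlap and with at least 1 CPM, up to 6 called members of each list, the drug targets, genes the study names, and the 5 largest CPM differences in each direction with a fold change of at least 2. Other members (such as PLK1, TPX2 and PDK1) were named for their role after their values were seen. Some genes and 1 list are not reported here. Members and lists were chosen with earlier results of these data known. With 3 libraries a group no exact permutation p can be below 0.1.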

Additional observations from a re-analysis of the deposited data

How the results depend on the processing

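Between TVB-3166 and alisertib, none of the 189 genes named by rule changed direction under any of the 15 alternatives in which they were tested. Over all genes, 70.9% (all 24 libraries in one fit) to 99.98% (replicate block) of the calls were kept, with 0 reversed. Requiring a fold change of at least 2 gave 457 higher and 645 lower genes with an unadjusted p and 443 and 620 with an adjusted p. With the replicate block 3412 genes were higher and 3533 lower. Leaving out 1 library at a time gave 2058 to 2437 higher and 2164 to 2674 lower genes. Between TVB-3166 and untreated day-7 cells these ranges were 2773 to 3421 and 2971 to 3526. Between alisertib and untreated day-7 cells the counts of 1318 and 1309 were 2116 and 2025 with the block, 2438 and 2697 against day-0 cells, and 545 to 1325 and 517 to 1475 with 1 library left out. The lowest were 545 and 517 without alisertib replicate 3, and they were 596 and 584 without untreated day 7 replicate 3 and 760 and 738 without alisertib replicate 2. The share of calls that were higher in TVB-3166 was between 46.7 and 50% over the alternatives at an adjusted p under 0.05 and no minimum fold. With a fold change of at least 2 it was lower, as the counts above show.

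Of the genes named by rule, 11 lost their call with all 24 libraries in one fit and 7 without alisertib replicate 3, the setting with most losses among those that left out a library. FADS2 lost its call in 9 alternatives, CDKN2A in 6, IRF1 in 4 and TNIP1 in 3. With all 24 libraries in one fit the unfolded protein response list had 1 higher gene, and the lysosomal, CDK inhibitor, actin and ERBB lists 1 lower gene each. The cause was not tested. Beside the counts given with each list, the replicate block changed no call of a gene named by rule between TVB-3166 and alisertib. Genes under 1 CPM rest on few reads, and differences there that did not pass were not detectable at this depth.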

Other observations

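SCGB2A2, which encodes mammaglobin A, was at 3360.0, 3938 and 3691 CPM in TVB-3166, 602, 1024 and 667 CPM in alisertib and 278, 451 and 271 CPM in untreated day-7 cells. The 3 groups did not overlap, alisertib replicate 2 being the highest of its group, and the difference between the drugs was 2.26 ± 0.17 on the log2 scale (adjusted p = 4.92e-06, edgeR). SCGB1D2, its partner lipophilin B, held 92.7, 116 and 101 CPM in TVB-3166 and 16.2, 26 and 18.9 CPM in alisertib, a difference of 2.34 ± 0.15 (adjusted p = 2.12e-06). SCGB2A1, of the same cluster on chromosome 11, differed by 2.47 ± 0.20 (adjusted p = 7.48e-06), at 10.7, 12.7 and 10.4 CPM against 1.51, 2.70 and 1.86 CPM. PIP held 16.7, 25.3 and 20.5 CPM against 2.33, 3.40 and 2.48 CPM (2.93 ± 0.19, adjusted p = 2.12e-06), and untreated day-7 cells 1.21, 0.984 and 0.416 CPM. SCGB1D2 and SCGB2A1 were chosen after their values were seen.

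CD68, a lysosomal membrane glycoprotein often used to mark macrophages, was 5.48-fold higher in TVB-3166 than in alisertib (2.45 ± 0.12, adjusted p = 4.47e-07), and alisertib overlapped the 3.68, 7.32 and 5.82 CPM of untreated day-7 cells (-0.09, adjusted p = 0.821). Its mean was 46.9 ± 7.03 CPM (SD, n = 3) with ND-646 and 42.1 ± 12.4 CPM with bleomycin. GPNMB, another glycoprotein of lysosomes, was at 1877, 1241 and 1735 CPM in TVB-3166 and 859.6, 613 and 843 CPM in alisertib (1.07 ± 0.16, adjusted p = 3.75e-04). ATAD2, a chromatin ATPase, was lower in TVB-3166, at 378, 336 and 351 CPM against 765, 729.9 and 852 CPM (-1.14 ± 0.09, adjusted p = 4.55e-06).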
